A study of Cicer arietinum with 8 samples.

Results

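The response of chickpea (Cicer arietinum) flowers and early pods to water deficit was measured on 3 cDNA arrays, each hybridised with treated and control RNA in different dyes. They make up 1 of the 8 samples and 3 of the 24 arrays of a series on drought, cold and salt, and were chosen by the sample title alone, with no measured value used. All plants of the series were of genotype ICC 3996, and those of the salt samples were 18 days old. Those of the drought and cold samples were taken 2 weeks after flowering and had days at 15 to 25 °C. In the cold samples, stressed plants had 7 nights at 5 °C. The plants on these 3 arrays grew in glasshouse pots of 1 plant each. In both groups the pots were first saturated and bagged against evaporation. Treated pots then dried until they held 30% of their water content, and control pots were kept at 80% and harvested at the same time. The labels give 5 treated plants, and RNA came from tissue pooled within each group. The series design calls the 3 arrays biological replicates, but nothing says how the pools were made, so the p-values measure only the spread between arrays. The tissue holds many cell types, and in a ratio fewer cells of a type cannot be told apart from less RNA per cell.

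Water deficit at flowering and pod set is a main cause of yield loss in grain legumes, in part through abortion of flowers and pods. Plant cells under water deficit accumulate abscisic acid, close their stomata, and make osmolytes, dehydrins and other late embryogenesis abundant proteins, and they lower the transcripts of photosynthesis and growth. Reproductive organs are sinks that depend on sugar imported from leaves, and their transcript response can therefore differ from that of the leaf. The array carried 756 probes for cDNAs, 6 spots each. The files name them by a code with the prefix U (442 probes), LS (156), CA (117) or LC (41) and give no gene descriptions. Probes are therefore named by code here, no function is given to any of them, and the tissue label could not be checked against marker genes.

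No probe was called changed by drought in flowers and early pods. Of 434 probes measured on at least 2 of the 3 arrays, 0 (0%) passed an adjusted p of 0.05 in limma, a linear model fitted to each probe over 21 arrays of the series with a dye term. The smallest adjusted p was 0.229. Before adjustment 51 probes had a p under 0.05, of which 35 were lower (8.06% of those tested) and 16 higher (3.69%). The methods' t-test, run on the 189 probes with values on all 3 arrays, gave 6 probes before adjustment and 0 after it, with a smallest adjusted p of 0.181. The intervals give the size of response left possible, with the spread between arrays estimated over all 21 arrays of the fit. For 353 probes (81.3%) the 95% interval of the fitted log2 ratio lay between -1 and 1, so a 2-fold difference lay outside it. For the other probes the interval reached 2-fold or beyond on at least 1 side. The median interval extended 0.47 on the log2 scale to each side of the fitted value. With drought flowers fitted alone, the spread came from its 3 arrays only, and the interval lay between -1 and 1 for 62 probes. The fit of 21 arrays gave every array the same spread for a probe, so it allowed array 1 no wider one. The SD over probes of the difference was 1.09 between arrays 1 and 2 and 1.08 between arrays 1 and 3. Between arrays 2 and 3 it was 0.36.

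The control channel of array 1 stood apart from the other 5 channels, and the probes nearest to the threshold rested on that array. All 51 probes with an unadjusted p under 0.05 had a ratio on array 1, and on 43 of them it was at least 2-fold from no difference. Without array 1, 427 probes were tested on arrays 2 and 3, 0 passed, the smallest adjusted p was 0.999 and 1 probe, CA0108, had an unadjusted p under 0.05. When array 1 was kept and another array set aside, calls appeared, 23 of 194 probes without array 2 and 33 of 191 without array 3. A channel is the image of 1 dye on 1 array. On arrays 1 and 2 the treated RNA carried Cy5 and the control RNA Cy3, and on array 3 the dyes were swapped. The control channel of array 1 had 1011 spots that the image software left unflagged, against 2083 to 2671 in the other 5 channels. It had 250 probes above background, against 418 in the treated channel of the same array. The control channels of arrays 2 and 3 had 512 and 477 such probes, and the treated channels 506 and 581. A probe counted as above background where at least 50% of its spots exceeded the local background mean by 2 of its SDs. Because a ratio needs both channels, array 1 gave a ratio for 199 probes, array 2 for 472 and array 3 for 443.

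The control channel of array 1 also ordered the probes differently from every other flower channel. Among the other 5 channels, treated and control alike, Spearman's rho of signal across probes lay between 0.936 and 0.982. The control channel of array 1 correlated with those same 5 at 0.381 to 0.618. On the 189 probes that all channels shared, the values were 0.913 to 0.982 among the 5 and 0.383 to 0.611 for that channel. When flagged spots were kept, 727 probes could be compared, and the values were 0.744 to 0.792 for that channel against 0.933 to 0.983 among the 5, so the gap narrowed without closing. With the 6 channels of drought leaves the control channel of array 1 correlated at 0.466 to 0.743, with a median of 0.550. The other 5 flower channels did so at 0.563 to 0.812, with a median of 0.745. Its highest leaf value, 0.743, was with the control channel of leaf array 1. When flagged spots were kept, these ranges were 0.708 to 0.812 for that channel and 0.801 to 0.907 for the other 5. The control channel of array 1 was then most like the treated channel of cold flower array 3, with a rho of 0.832. These correlations are across probes that share slides and are given as a description.

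**Figure D1:**
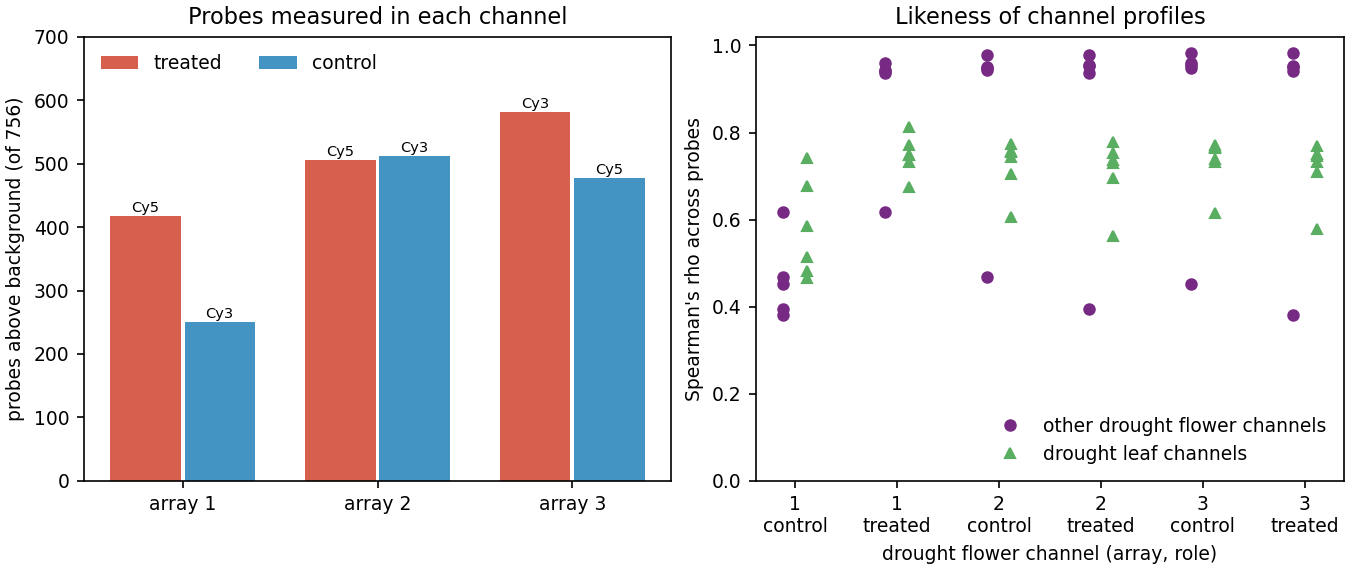
Left, number of the 756 probes above background in each channel of the 3 drought flower arrays, as bars from 0, with the dye above each bar. Right, Spearman's rho across probes of each drought flower channel with the other 5 (circles) and with the 6 drought leaf channels (triangles). The control channel of array 1 has the lowest bar, 250, and its circles lie between 0.381 and 0.618.

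Tissue was the next comparison, since the labels call both channels of array 1 flowers and early pods. Probes that distinguish organs were taken from the control channels of the cold experiment, which used other plants of the same genotype and age. Of the 173 probes measured in all 24 drought and cold channels, 25 were at least 2-fold brighter in leaves there and 21 at least 2-fold brighter in flowers. The median log2 signal of the flower-bright probes minus that of the leaf-bright probes was -0.57 in the control channel of array 1. In the other 5 drought flower channels it ran from 0.25 to 0.88. It ran from 0.30 to 1.24 in the 6 cold flower channels and from -3.02 to -1.17 in the 12 leaf channels of drought and cold. The cold control channels among these chose the probes, and their values are a description. The control channel of array 1 thus lay between the flower and the leaf channels and overlapped neither. Which RNA or labelling gave this profile was not tested, and summaries and named probes below are therefore also given without array 1.

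The ratios of array 1 also scattered differently with brightness. By the mean brightness of both channels, the median log2 ratio before normalisation was 1.67 for the 337 dimmest spots of array 1, 1.89 for the middle 336 and 0.34 for the brightest 337. The corresponding medians were 0.48, 0.48 and 0.44 on array 2 and 0.70, 0.56 and 0.39 on array 3. Each array was then normalised by loess, a smooth curve through ratio against mean brightness. After it those medians lay between 0.05 and 0.17 on array 1 and between -0.01 and 0.01 on arrays 2 and 3. The median absolute deviation (MAD) of the spots of array 1 was then 0.59 for dim, 0.61 for middle and 1.67 for bright spots, while on arrays 2 and 3 the bright spots had the smallest, 0.25 and 0.22. Over probes, the MAD of the log2 ratios was 0.82 on array 1, and 0.22 and 0.23 on arrays 2 and 3. On the 18 arrays of the 6 other stress comparisons in the fit the MAD lay between 0.35 and 0.83. Arrays 2 and 3 of drought flowers were thus the 2 arrays with the smallest spread of ratios among 21, and array 1 the one with the second largest. The spread between spots of a probe did not differ in this way, with a median SD of 0.14 on array 1, 0.14 on array 2 and 0.15 on array 3.

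**Figure D2:**
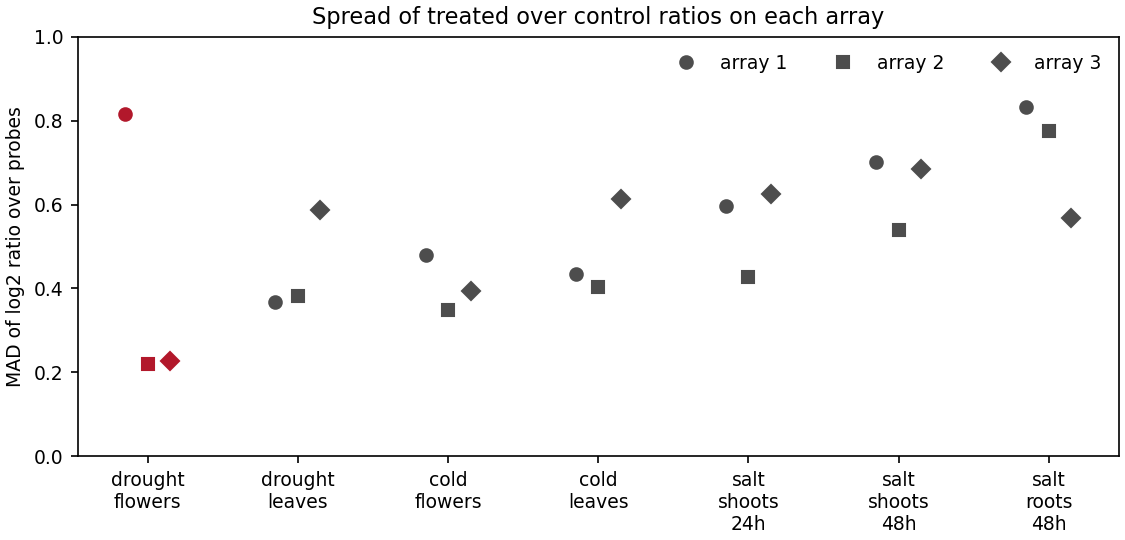
MAD of the log2 ratio of treated over control over the probes of each array, for the 7 stress comparisons in the fit. Each point is 1 array, and the drought flower arrays are in red. Arrays 2 and 3 of drought flowers, at 0.22 and 0.23, are the lowest points, and array 1 is at 0.82.

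The ratios of arrays 2 and 3 were small. On array 2, 1 of 472 probes was at least 2-fold lower and 0 were 2-fold higher. On array 3, 1 of 443 was at least 2-fold higher and 0 were 2-fold lower. On array 1, 26 of 199 probes (13.1%) were at least 2-fold higher and 41 (20.6%) at least 2-fold lower. The mean of arrays 2 and 3, in which a dye effect cancels because the dyes were swapped, ran from -0.78 to 0.79 over 427 probes. None of the 427 had a mean beyond 2-fold and 12 had one beyond 1.5-fold. The 107 brightest probes varied least, with an SD of the mean ratio of 0.14, against 0.20 to 0.24 in the 3 dimmer sets of 106 or 107.

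The arrays also differed in which probes they set apart. Across the 427 probes of arrays 2 and 3, the ratios correlated with r = 0.10 (rho = -0.06), and 192 probes (45.0%) had the same sign on both. Array 1 correlated with array 2 at r = 0.57 over 191 probes and with array 3 at r = 0.58 over 194. On the 189 probes with values on all 3 arrays, arrays 2 and 3 correlated with r = 0.37. On the 238 probes that had no ratio on array 1, they correlated with r = -0.22 (rho = -0.33). The dye term of the fit, which takes up a shift shared by all arrays of 1 dye orientation, itself passed an adjusted p of 0.05 for 56 of 478 probes. Genes are not independent replicates, so these values describe the arrays and carry no test.

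**Figure D3:**
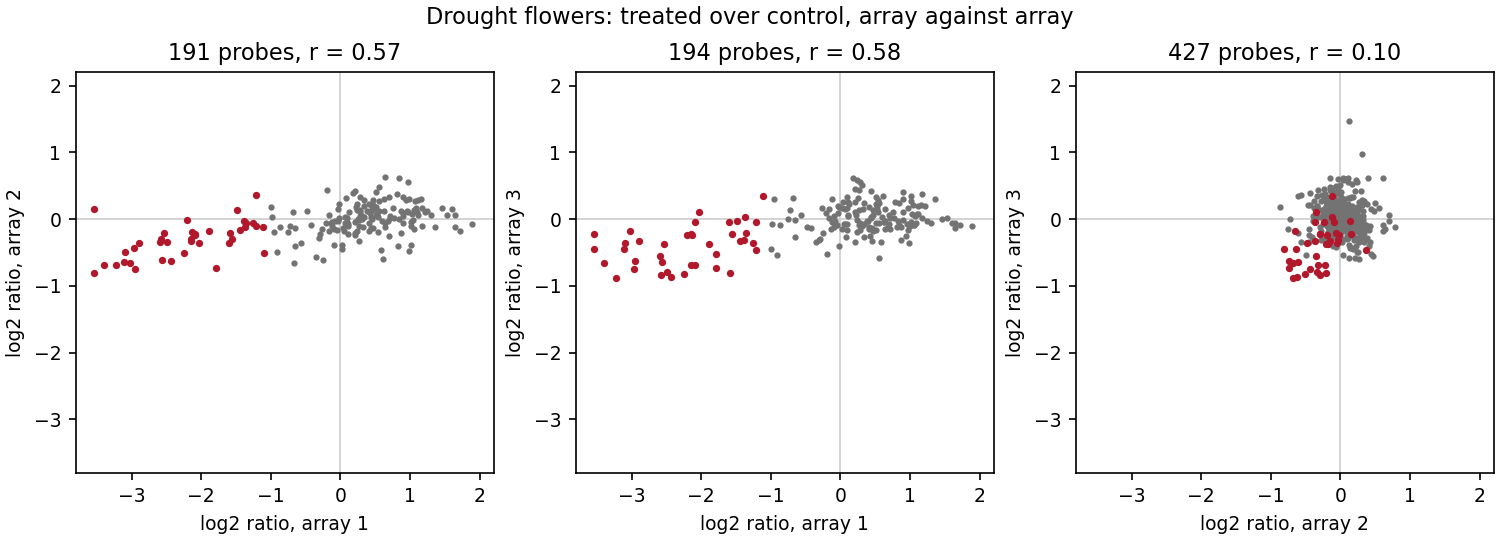
Log2 ratio of treated over control for each probe, array against array, on equal axes. Red points are the 38 probes at -1 or below on array 1 that were measured on all 3 arrays. They lie mostly below 0 on arrays 2 and 3 too, but no lower than -0.88 there.

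Arrays 2 and 3 mostly shared the sign of array 1 on 38 probes. These had a log2 ratio of -1 or below on array 1 and values on all 3 arrays. Their medians were -2.15 on array 1, -0.29 on array 2 and -0.37 on array 3. On both arrays 2 and 3, 32 of the 38 (84.2%) were below 0. The share was 66 of the 189 probes with values on all 3 arrays (34.9%), and 99 of all 427 probes (23.2%). Of the 26 probes at 1 or above on array 1, whose median there was 1.17, 9 (34.6%) were above 0 on both others. That share was 37 of the 189 (19.6%) and 93 of the 427 (21.8%). The medians of those 26 were 0.06 on array 2 and 0.02 on array 3. With the 38 left out, 151 probes remained. On them array 1 correlated with array 2 at r = 0.27 and with array 3 at r = 0.10, while arrays 2 and 3 correlated at r = 0.0012. Leaving out 1 end of the range of array 1 lowers its correlations by itself. The drop therefore does not show where the likeness lay. The 38 were chosen on array 1, so their values there are a description, and on arrays 2 and 3 none of them was 2-fold from no difference.

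The 38 probes were also described by measures that their choice did not use. By code, 27 (71.1%) were U, close to the 70.4% of U among the 189 probes on 3 arrays. Another 7 were CA and 4 were LS, while the 189 held 51 CA and 5 LS probes, so most of those LS probes were in this set. In the control channels of the cold experiment, 35 of the 37 that could be compared were brighter in leaves than in flowers, by a median of 0.69 on the log2 scale, and 10 were at least 2-fold brighter in leaves. For the 177 such probes on all 3 arrays the median was 0.12, and 100 were brighter in leaves. In drought leaves, 33 of the 38 had a fitted ratio below 0, with a median of -0.16, against 101 of 189 and a median of -0.01. A fitted sign was not always that of each leaf array. On leaf arrays 1, 2 and 3, U307 was at -0.80, 0.49 and -0.69, while U390 was at -0.13, -0.09 and -0.09. In cold flowers, 25 of the 38 (65.8%) were below 0, with a median of -0.13, against 105 of 188 (55.9%) and -0.04. The fitted ratios of drought leaves and cold flowers share the dye term with drought flower array 1, so they are not wholly separate from the choice. No test was made of these shares. Across those 177 probes the leaf over flower difference correlated with the drought flower ratio at r = -0.36 on array 1, -0.25 on array 2 and -0.25 on array 3, as a description of these probes. Over all probes with a value, 307 on array 2 and 308 on array 3, it was -0.04 and -0.12. The part of organ composition in these ratios was not tested.

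The 8 probes with a lower ratio on all 3 arrays and the smallest unadjusted p were CA0108, U511, CA0032, U307, U041, U390, U175 and LS0060. None passed the adjusted threshold. CA0108 had a log2 ratio of treated over control of -2.09 on array 1, -0.23 on array 2 and -0.69 on array 3. Its fitted ratio was -1.07 ± 0.27 (SE, n = 3 arrays), with an adjusted p of 0.229 in limma. Without array 1 the fit gave -0.46 ± 0.17 with an adjusted p of 0.999. Before normalisation the mean spot signals over background for CA0108 were 7148 treated and 13653 control on array 1, 5780 and 4990 on array 2, and 7649 and 8536 on array 3. The raw order of the channels thus turned between arrays 1 and 2, while the normalised ratio kept its sign because most spots on array 2 were brighter in the treated channel.

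U307 had the lowest fitted ratio of these 8. It was at -3.40 on array 1, -0.68 on array 2 and -0.65 on array 3, with a fitted ratio of -1.56 ± 0.49 (adjusted p = 0.229 in limma) and -0.67 ± 0.44 without array 1. Its control signal was 8576 on array 1, against 3634 and 3500 on arrays 2 and 3, while its treated signal was 2776, 3014 and 3287. These signals are not scaled between arrays, so they are comparable within an array only. The control spot was the brighter one on each array, by most on array 1. U175 was at -2.56, -0.61 and -0.65 on the arrays, and at -0.63 as fitted without array 1, with treated signals of 6922, 6211 and 6510 and control signals of 20692, 7047 and 7231. LS0060 was at -2.95, -0.74 and -0.62, with a fitted ratio of -1.42 ± 0.45 (adjusted p = 0.229 in limma) and -0.68 ± 0.45 without array 1.

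The other 4 lower probes were U511, CA0032, U041 and U390. U511 was at -1.58, -0.20 and -0.81, CA0032 at -2.49, -0.34 and -0.80, and U041 at -2.58, -0.29 and -0.84 on arrays 1, 2 and 3. Array 3 lay below array 2 on all of these and array 1 below both. U390 was at -1.56, -0.30 and -0.23. The adjusted p of each in limma was 0.229. Without array 1 their fitted ratios were -0.51 for U511, -0.57 for CA0032, -0.57 for U041 and -0.26 for U390. Over all 32 probes with a lower ratio, an unadjusted p under 0.05 and values on 3 arrays, array 1 was the lowest of the 3 values, and 2 of the 35 lower probes, CA0108 and LS0697, kept an unadjusted p under 0.05 when array 1 was set aside. LS0697 then had a ratio on array 2 only.

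The 8 probes with a higher ratio on all 3 arrays and the smallest unadjusted p were U105, CA0750, U441, U323, U258, U112, U023 and U008. U105 was at 1.11, 0.29 and 0.20 on arrays 1, 2 and 3. Its fitted ratio was 0.52 ± 0.17 (adjusted p = 0.229 in limma), a fold of 1.43, and 0.24 ± 0.17 without array 1. U441 was at 0.97, 0.56 and 0.16, with the highest fitted ratio of the 8, 0.57 ± 0.22 (adjusted p = 0.26 in limma), and 0.36 ± 0.26 without array 1. For these probes too array 1 was mostly the extreme value. On U323, U258, U008 and CA0750 array 1 gave 1.22, 0.90, 1.07 and 0.89, while arrays 2 and 3 lay between 0.04 and 0.31. Without array 1 their fitted ratios were 0.15, 0.10, 0.15 and 0.18. On array 1 the ratio of U323 came from 1 spot, that of U008 from 2 and that of U258 from 3.

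U023 and U112 were the 2 of these 16 probes on which array 1 was close to or within the range of the others. U023 was at 0.55, 0.49 and 0.24, with a fitted ratio of 0.44 ± 0.19 (adjusted p = 0.395 in limma) and 0.37 ± 0.24 without array 1. U112 was at 0.28, 0.11 and 0.55, with a fitted ratio of 0.36 ± 0.14 (adjusted p = 0.271 in limma) and 0.33 ± 0.18 without array 1. Setting array 1 aside moved these 2 by less than 0.1 on the log2 scale and left both short of the threshold. The 3 arrays had 1 sign for 79 of the 189 probes measured on all of them, 46 all below 0 and 33 all above it, and mixed signs for 110.

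**Figure D4:**
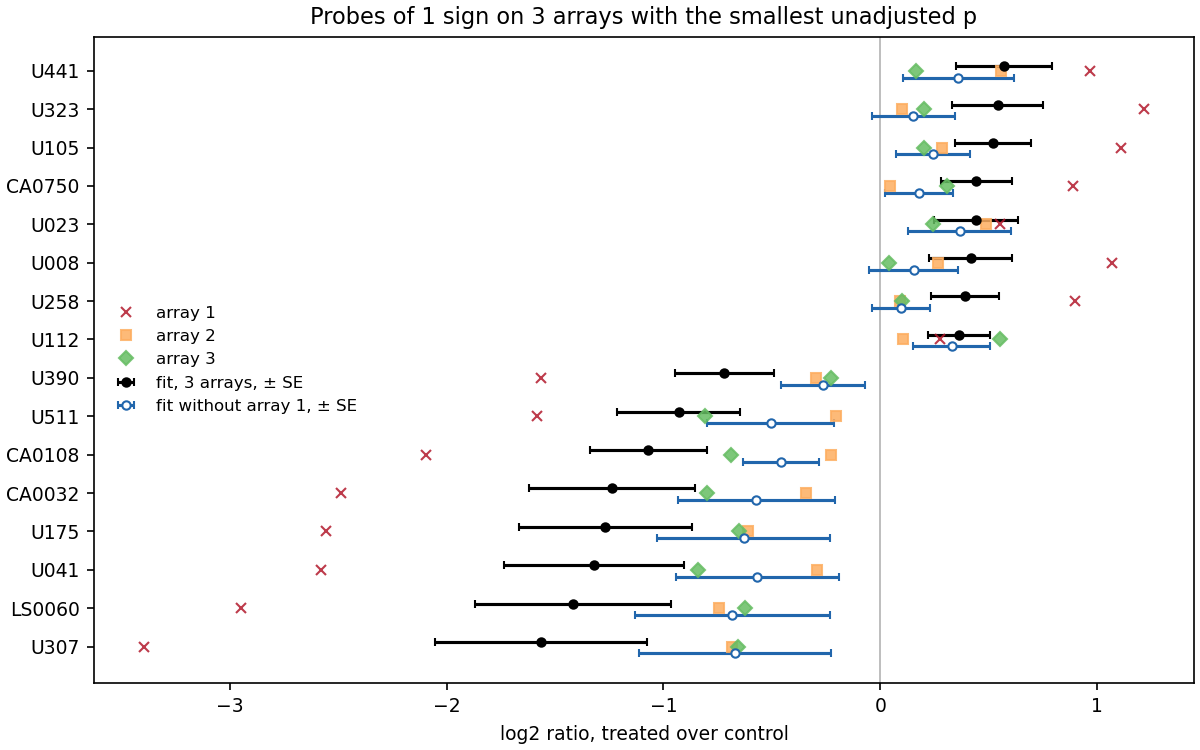
Log2 ratio of treated over control for the 16 probes with the smallest unadjusted p among those with 1 sign on all 3 arrays, 8 in each direction, on each array and as fitted with and without array 1, with SE bars. Array 1 (crosses) lies farthest from 0 for all but U112 among the 16, and every fitted value without array 1 is nearer to 0 than the one with it.

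Arrays 2 and 3 alone gave 12 probes whose mean ratio was beyond 1.5-fold, 9 lower and 3 higher. The 9 lower probes were LS0059, LS0060, LS0093, U175, U249, U307, U373, U394 and U397, all of them at -1.79 or lower on array 1 as well. U397 had the lowest mean, -0.78, from -0.68 on array 2 and -0.88 on array 3. LS0059 was the probe with the closest values, -0.74 on both arrays. On 6 probes both arrays were more than 1.5-fold lower, and on 1 probe both were more than 1.5-fold higher. These 12 were picked for their size, and none had an adjusted p under 0.229 in the fit with array 1.

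The 3 higher probes, U471, LS0551 and U034, had no ratio on array 1. U471 was at 0.60 on array 2 and 0.61 on array 3, the only probe above 1.5-fold on both. Its signals were dim, with 1643 treated and 728 control on array 2 and 3167 and 1156 on array 3, and its fitted ratio was 0.61 ± 0.48 (adjusted p = 0.853 in limma). LS0551 was at 0.31 and 0.98, with a fitted ratio of 0.64 ± 0.35 (adjusted p = 0.557). U034 was at 0.12 and 1.46, with a fitted ratio of 0.79 ± 0.55 (adjusted p = 0.719). The treated and control signals of U034 were 2134 and 1365 on array 2, and 7169 and 1547 on array 3. They are not scaled between arrays, so which channel made the arrays differ cannot be told.

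Among the 245 probes measured on 2 arrays only, the largest fitted sizes belonged to U055, U430, LS0697 and U034. U055 was at -1.10 on array 1 and -0.51 on array 2, and its fitted ratio was -1.22 ± 0.44 (adjusted p = 0.317 in limma). U430 was at -1.78 on array 1 and -0.52 on array 3, with a fitted ratio of -1.15 ± 0.36 (adjusted p = 0.26). LS0697 was at -0.67 on array 1 and -0.65 on array 2, with a fitted ratio of -1.13 ± 0.33 (adjusted p = 0.229). Arrays 1 and 2 share a dye orientation, so for U055 and LS0697 the fit took the dye term from the other conditions, and that term moved the fitted ratio below both measured values. Without array 1 each of U055, U430 and LS0697 had 1 ratio left and was not tested.

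Over all tested probes the fitted ratios ran from -1.58 to 0.79 with a median of 0.04, and 23 were at -1 or below while 0 were at 1 or above. A fitted ratio above 0 was found for 263 probes (60.6%). By code the share was 65.6% of 299 U probes, 52.3% of 88 CA probes and 44.7% of 47 LS probes, and no LC probe was tested. Without array 1 it was 55.3% over all probes, 60.8% of U, 42.0% of CA and 45.7% of LS, so CA moved from above 50% to below it. Single arrays varied in this share as much as the codes did. For LS probes it was 0% of 6 on array 1, 21.3% of 47 on array 2 and 65.2% of 46 on array 3. For CA probes it was 56.9%, 40.9% and 36.4%, and for U probes 66.9%, 55.4% and 51.0%.

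Presence above background did not separate treated from control flowers on all 3 arrays for any probe. Of the 756 probes, 243 were above background in all 6 channels and 167 in none. A further 163 were above background in all 3 treated channels and 2 of the 3 control channels. That count has to be read beside the dim control channel of array 1, with 250 probes above background against 512 and 477 in the other control channels. No probe was above background in 1 role on all 3 arrays and in the other on none. The negative control spots were above background for 0% to 2.38% of spots in these 6 channels.

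Drought in flowers was then set against drought in leaves, from pots under the same regime and at the same age. The difference between the organs was tested as a contrast in the same model over 389 probes. In limma 0 (0%) passed, the smallest adjusted p was 0.543 and 31 had an unadjusted p under 0.05. Without array 1 of flowers the corresponding values were 382 probes, 0, 0.687 and 22. U104 had the smallest unadjusted p in this contrast. Its fitted ratio was 0.40 ± 0.19 in flowers and -0.57 ± 0.19 in leaves, a difference of 0.97 ± 0.27, which was 0.64 without array 1. On arrays 2 and 3 of flowers U104 was at 0.08 on each, so that most of the remaining difference came from the leaf side.

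CA0108, U243 and U109 followed in that contrast. CA0108 differed by -1.23 ± 0.38, from -1.07 in flowers and 0.16 in leaves, and by -0.59 without array 1. U243 had no ratio on array 1 and was at 0.22 and 0.0030 on arrays 2 and 3 of flowers, with a fitted ratio of 0.11 ± 0.12, against -0.44 ± 0.10 in leaves. U109 was at 0.33, -0.12 and 0.15 in flowers, so its arrays straddled 0, with a fitted ratio of 0.17 and 0.01 without array 1, and its fitted ratio in leaves was -0.34 ± 0.12. The adjusted p of each was 0.543. Across the probes the SD of the fitted ratios was 0.41 in flowers and 0.35 in leaves. Without array 1 it was 0.21 in flowers, smaller than in leaves. The ratios of the organs correlated across probes at r = 0.33 with array 1 and 0.34 without it.

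Drought and cold were compared within flowers and early pods, where cold-stressed plants had 7 nights at 5 °C and their controls stayed at 15 to 25 °C. Of 415 probes, 0 (0%) passed in limma, the smallest adjusted p was 0.144 and 47 had an unadjusted p under 0.05. Without drought array 1, 409 probes gave 0, with a smallest adjusted p of 0.513 and 34 at an unadjusted p under 0.05. U071 had the smallest unadjusted p. It was at -0.19, 0.44 and -0.52 on the 3 drought arrays, and its fitted ratio was -0.26 ± 0.14 for drought and 0.66 ± 0.14 for cold, a difference of -0.92 ± 0.20 (adjusted p = 0.144 in limma). Its ratio on drought array 1 came from 2 spots. Without that array its drought ratio was -0.04 and the difference -0.69 (adjusted p = 0.513).

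The other 3 probes of this contrast had a larger fitted size in cold than in drought. None of their cold ratios passed the threshold (adjusted p from 0.054 to 0.094 in limma). CA0318 had a fitted ratio of 0.25 ± 0.13 for drought and -0.50 ± 0.13 for cold. CA0030 had -0.27 ± 0.16 and 0.59 ± 0.16, and U275 had 0.02 ± 0.13 and -0.64 ± 0.13. The adjusted p of each difference was 0.188 in limma. Without array 1 the drought ratio was 0.13 for CA0318 and -0.11 for CA0030, and the differences were 0.63 (adjusted p = 0.533) and -0.70 (adjusted p = 0.557). Without array 1 the drought ratio of U275 was 0.04. For U275 the 3 drought arrays lay between -0.06 and 0.15, and without array 1 its difference was 0.68, against 0.66 with it. Across probes, drought and cold ratios in flowers correlated at r = 0.0021 with array 1 and -0.07 without it.

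**Figure D5:**
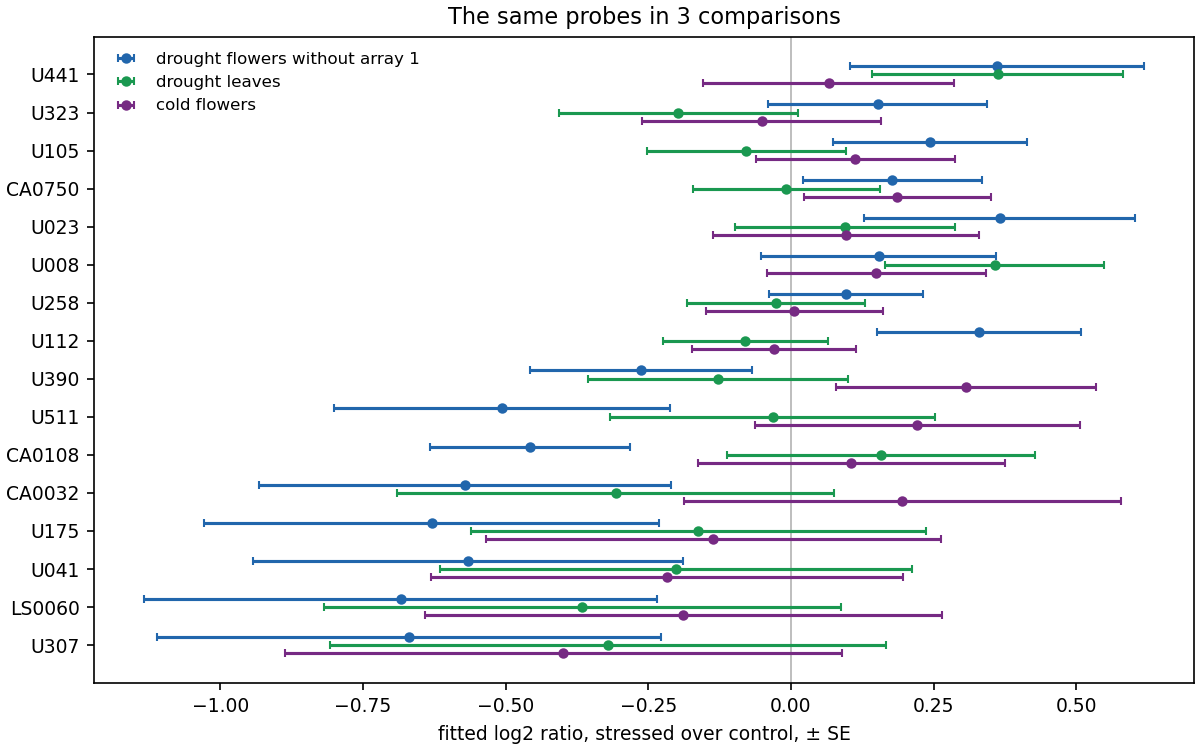
Fitted log2 ratio of stressed over control, with SE bars, for the same 16 probes in drought flowers without array 1, drought leaves and cold flowers. CA0108 is at -0.46 in drought flowers, 0.16 in drought leaves and 0.11 in cold flowers, and U441 at 0.36, 0.36 and 0.07.

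Probes that passed the threshold in limma in other conditions were looked up on arrays 2 and 3 of drought flowers, since those calls came from other plants and arrays. Over all 427 probes 93 (21.8%) were above 0 on both arrays and 99 (23.2%) below 0 on both, with a median mean ratio of 0.01. In salt shoots at 48 h, 56 of 419 probes rose (13.4%) and 75 fell (17.9%). Of the 56 that rose, 21 were above 0 on both arrays in drought flowers and 9 below, with a median of 0.06. Of the 71 that fell and were measured here, 10 were above and 9 below, with a median of 0.03. In salt shoots at 24 h, 10 of 394 probes rose and 10 fell (2.54% each). Of those that rose, 8 were above 0 on both arrays and 0 below, and of those that fell, 1 was above and 2 below.

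In salt roots at 48 h, 56 of 244 probes rose (23%) and 44 fell (18%). Of the 53 risers measured here, 17 were above 0 on both arrays of drought flowers and 3 below, with a median of 0.07. Of the 44 that fell, 5 were above and 15 below, with a median of -0.06. In cold leaves 12 of 429 probes rose (2.8%) and 4 fell (0.932%). Of the 11 risers measured here 1 was above 0 on both arrays and 2 below, and of the 4 that fell 1 was above and 0 below. All these medians were below 0.2 in size, and none of the shares was tested. The arrays of the other conditions share the dye term of the fit with those of drought flowers.

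The 5 probes with the highest ratio in salt shoots at 48 h were U098, U034, CA1126, CA0426 and U278. U098 was at 3.58 ± 0.49 in salt shoots (adjusted p = 2.33e-04 in limma) and at 0.17, 0.40 and 0.62 on drought flower arrays 1, 2 and 3, with a fitted ratio of 0.42 ± 0.49 (adjusted p = 0.95). U034 was at 3.15 ± 0.46 in salt shoots and at 0.12 and 1.46 on arrays 2 and 3 here. CA1126, at 2.91 ± 0.49 in salt shoots, was at 0.33 and 0.27. Of the other 2, U278 was at 2.41 ± 0.19 in salt shoots and at 0.01 and 0.02 here, and CA0426, at 2.81 ± 0.53, was at -0.02, 0.23 and -0.40 on arrays 1, 2 and 3.

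The authors' deposited table gives a mean log2 value for 484 probes in drought flowers, which was read as treated over control. Of the 434 probes also tested here, 339 (78.1%) had the same sign in the authors' deposited table as in the fit, and the values correlated across probes at r = 0.74. The direction of the authors' deposited table was itself set by these arrays, so this sign does not check it, and with the direction turned the share is 21.9%. Of the values in the authors' deposited table, 10 were at -1 or below and 3 at 1 or above. The lowest value in the authors' deposited table was -3.30 for CA0905, which had a ratio on array 2 only, -0.39, and was not tested. U307 followed in the authors' deposited table at -1.36. LS0551, at 1.00 there, CA0968 at 1.08 and LS0297 at 1.11 were the 3 highest values of the authors' deposited table, and only LS0551 had ratios on 2 arrays.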

How the data were processed

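The intensity deposited for each of 4704 spots is the mean brightness of its pixels, given with that of the local background, from ImaGene version 5.5, per the file headers. The authors' deposited log2 table holds means over 3 biological replicates, per the labels, made after local background subtraction, removal of flagged spots and LOWESS, per the series design. Its shift and centring are unknown (median -0.01 over 484 probes), and its direction was taken from its positive regression on these arrays.

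A spot flagged in any channel was dropped, background was corrected with normexp (offset 50), and each array was normalised by global loess. Array 3 was turned to treated over control, and spots were averaged per probe. The array number as a block was added after the data were seen. A linear model of all conditions, with 1 dye term for every array, was fitted with limma 3.58.1 in R 4.3.3 and moderated with eBayes over 21 arrays. Salt roots at 24 h were planned for the fit, but their 3 arrays hold copies of 1 scan (99.7% of spots share their pixel SD) and were left out. Benjamini-Hochberg adjustment ran over all probes of a comparison with values on at least 2 arrays, and tests were 2-sided. The fit was also run on simulated data with the same noise on every array. Array 1 had a wider spread than arrays 2 and 3, so that run does not cover its effect. The number of arrays limits the precision.

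The rule for named probes took all past the threshold, otherwise 8 in each direction with the smallest unadjusted p among those with 1 sign on 3 arrays, the 4 smallest p in each contrast, and the 4 largest fitted sizes on 2 arrays. Probes above background in 1 role only and tested LC probes were also to be named, and there were 0 of each. The 38 probes low on array 1, the 12 beyond 1.5-fold, the salt probes and those named from the authors' deposited table were chosen after their values were seen, and members and lists with earlier results of these data known. Alternatives changed the background, flag, normalisation and dye settings, the filters, the arrays, and a block for the quantification day, whose earliest holds no drought flower array.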

Additional observations from a re-analysis of the deposited data

How the results depend on the processing

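No paired analysis was possible because each condition is 1 sample, except that its arrays carry numbers. With the array number as a replicate block, chosen after the data were seen, the contrast with drought leaves gave 0 of 387 (smallest adjusted p 0.243 in limma) and that with cold flowers 0 of 340 (0.451). In limma with this block, 69 and 32 probes had an unadjusted p under 0.05, against 31 and 47 in the main contrasts. Deviations of same-numbered arrays correlated at 0.60, 0.63 and -0.10 with drought leaves and at 0.54, -0.34 and 0.64 with cold flowers. The highest correlations with another number were 0.25, -0.36 and 0.47 with drought leaves and 0.43, 0.43 and -0.45 with cold flowers. The own number was thus the higher on some arrays and the lower on others. Whether the numbers are pairs is not known, and the main contrasts left them unpaired. The call of 0 probes for drought in flowers became 2 with scaling between arrays and 6 with the methods' t-test unadjusted, and ran from 0 to 33 when 1 array was left out: 0 of 427 without array 1, 23 of 194 without array 2 and 33 of 191 without array 3. The contrast with drought leaves gave 1 with scaling between arrays and 0 whichever drought flower array was left out. That with cold flowers gave 11 with scaling and 0 to 5 when an array was left out. Scaling gives every array the same spread, so it shrinks array 1 and stretches arrays 2 and 3.

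The 353 probes with an interval inside 2-fold became 62 with drought flowers fitted alone, where the spread came from its 3 arrays only. The count became 629 of 756 with flagged spots kept and 133 of 189 with values on 3 of 3 arrays. It ran from 98 to 378 when an array was left out. The share above 0 became 51.2% in the authors' deposited table, over all probes and over U probes alike, 38.6% of CA probes with array quality weights, and 0% of LS probes on 3 of 3 arrays, with 0% to 45.7% of LS probes when an array was left out. The likeness of the array 1 control channel, at a median rho of 0.45, became 0.78 with all spots. The correlation of arrays 2 and 3 became -0.42 with flagged spots kept. The 84.2% became 52.9% with flagged spots kept and 71.2% when a spot had to be flagged in both channels to be dropped. The cause was not tested for any of these.

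Of 498 values for 27 named probes under the alternatives, 10 changed sign. U109 became -0.56 in the authors' deposited table, -0.053 with flagged spots kept, -0.0011 with loess by subgrid, -0.074 with median centring and -0.080 under the rule of flags in both channels. U275 became -0.022 with quality weights, -0.024 with median centring, -0.014 with the looser flag rule, and -0.13 to 0.11 when an array was left out, below 0 without array 3. U323 became -0.045 in the authors' deposited table. Another 23 values passed the threshold, 13 without array 3, 8 without array 2 and 2 with scaling between arrays. Signal over background limits array 1 most, where 199 of 756 probes gave a ratio.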
